A study of Homo sapiens with 6 samples.

Results

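The genes described here encode the extracellular cues that steer growing axons, their cell surface receptors and the proteins that bind those receptors inside the cell. They were chosen by name: protein-coding genes of the netrin, UNC5, DCC and neogenin, repulsive guidance molecule (RGM), FLRT, semaphorin, plexin, neuropilin, DPYSL, slit, ROBO, SRGAP, ephrin, EPH and PLXDC families, and the rule uses no measured value. The annotation holds 89 such genes, and 61 of them are among the 13885 genes of the comparison. The other 28 have no value analysed here. RNA came from BE(2)-C, a human neuroblastoma line with amplified MYCN that becomes more neuronal in retinoic acid. A pair of groups with 3 samples each was compared, and both are labelled wild type in genotype. One group received a small interfering RNA (siRNA) against PCIF1 and the other a scrambled siRNA, each for 24 h by lipid transfection. All 6 samples then spent 4 days in 10 µM all-trans retinoic acid (ATRA), renewed daily, so no group without ATRA is part of the comparison. The model is 1 cell line and 1 siRNA against PCIF1, and the labels do not say whether the 3 samples of a group were separate cultures, and p-values then reflect nothing more than how these samples vary.

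Guidance cues work in matched sets. Netrins attract axons through DCC and its relative neogenin and repel them where an UNC5 receptor is present. Class 3 semaphorins bind neuropilins, which signal through plexins, while most membrane-bound semaphorins bind plexins directly. Slits repel through ROBO receptors, whose cytoplasmic parts recruit SRGAP proteins, and ephrins and EPH receptor kinases signal at cell contacts in both directions. In the neural crest, which gives rise to sympathetic neurons and to neuroblastoma, semaphorin and neuropilin signals are known to guide migration. PCIF1, the siRNA target, is the enzyme that methylates an adenosine next to the mRNA cap to give m6Am.

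Only the authors' deposited table of the comparison was analysed, a DESeq2 result with 1 mean, fold change and test per gene. No value per sample was analysed here, so overlap between the groups cannot be described, and the standard error (SE) of a fold change stands for the spread. PCIF1 was at a log2 fold change of -0.82 (SE 0.19) per the authors' deposited table (DESeq2 adjusted p of 0.000167). The header does not state which group is the numerator. All signs below are read as siPCIF1 over siScramble because PCIF1 then falls, whereas reading the table's name from left to right would turn every sign. A gene with a DESeq2 adjusted p under 0.05 over the whole table is said to have risen or fallen. Levels given for each group were computed from the mean normalised count and the fold change of the authors' deposited table and carry no error of their own. Fold changes in that table behave as if shrunken towards 0, so changes of genes with few counts may be understated most. Each result describes RNA of a whole culture, in which fewer cells of a kind and less RNA per cell cannot be told apart.

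Guidance genes moved in both directions, with decreases more frequent. Of the 61 genes, 9 rose and 17 fell by DESeq2 per the authors' deposited table, or 42.6% changed, beside 34.0% of all 13885 genes and 36.2% of the 11790 protein-coding ones. Rises took 14.8% of the members against 16.3% of all genes, so that share lay near the background. Decreases took 27.9% against 17.7% of all genes per the authors' deposited table. The median log2 fold change of the members was -0.22, beside 0.0059 for all genes of the authors' deposited table. Large changes, of at least 1 on the log2 scale, were found in 11 of the 61 members, 5 upwards and 6 downwards, beside 5.3% of all genes. Among the 33 members with a mean count of at least 100, 17 changed (51.5%), beside 40.3% of all such genes per the authors' deposited table. Under 0.01 for DESeq2's adjusted p, 7 members rose and 10 fell, beside 22.9% of all genes, and at 0.1, 10 rose and 20 fell, beside 41.2%. With the Wald statistics divided by their robust SD, only SLIT2 passed among the members, beside 0.972% of all genes. Of changes called at 0.05, those of at least 0.5 on the log2 scale were 8 upwards and 13 downwards, beside 26.4% of all genes. Near the threshold lay SEMA3D, with a DESeq2 adjusted p of 0.0451 per the authors' deposited table, and SRGAP2B, with 0.0727.

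**Figure D1:**
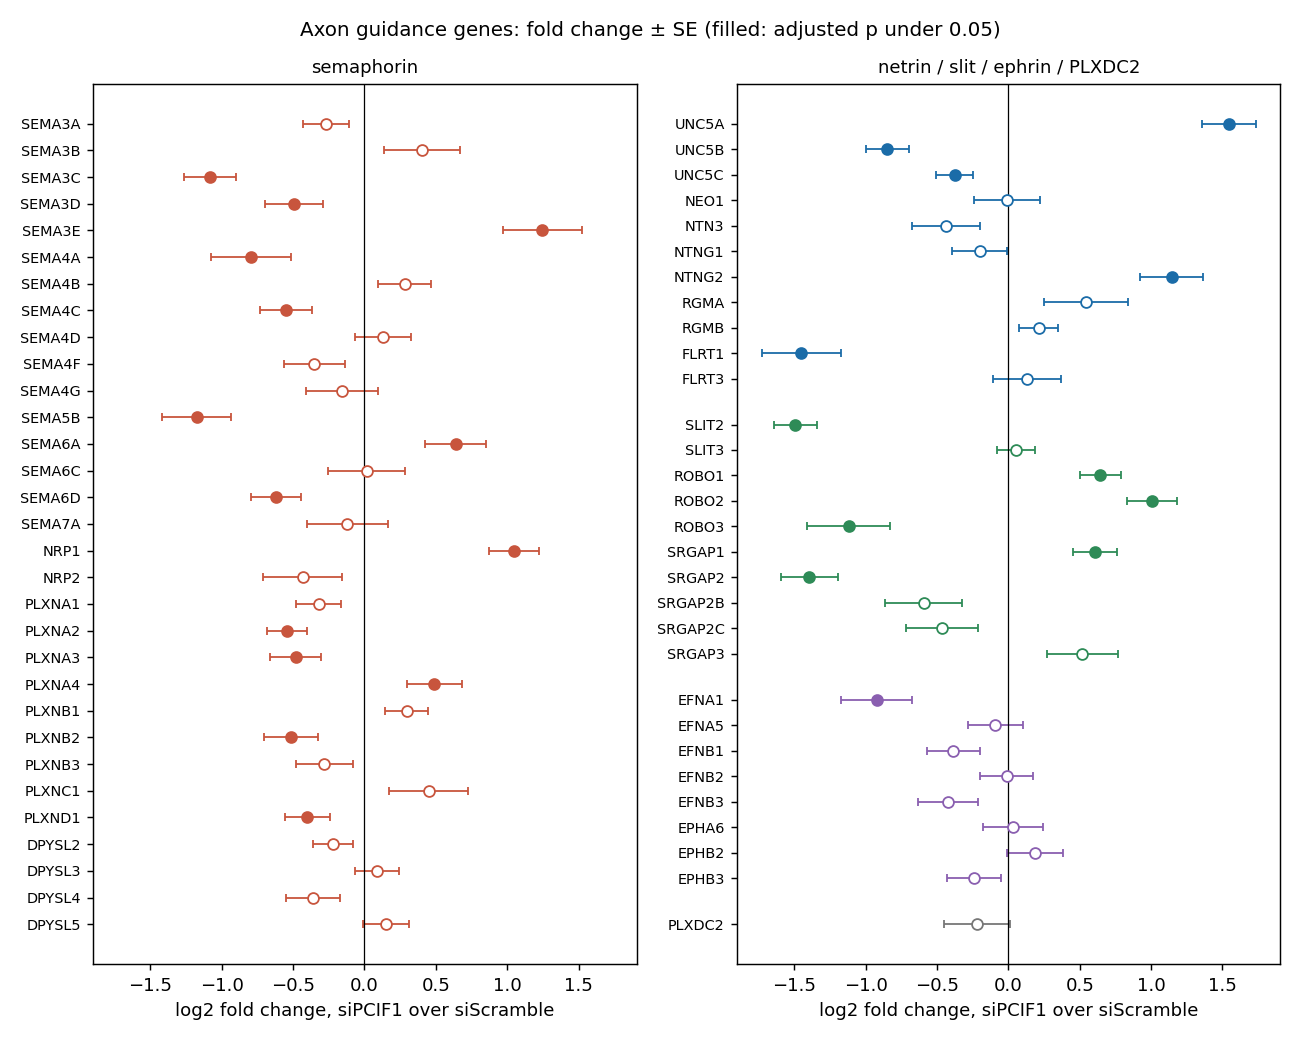
Log2 fold change, siPCIF1 over siScramble, of the 61 guidance genes with SE bars, from the authors' deposited table. Filled points have a DESeq2 adjusted p under 0.05, and blue, red, green, purple and grey mark the netrin, semaphorin, slit and ephrin systems and PLXDC2. UNC5A, at 1.54, lies farthest to the right and SLIT2, at -1.49, farthest to the left.

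Calls were counted in each of the 4 systems, beside 34.0% of all genes changed and 40.3% of those with a mean of at least 100. In the slit system 6 of 10 changed (3 up, 3 down), in the netrin system 5 of 11 (2 up, 3 down) and in the semaphorin system 14 of 31 (4 up, 10 down) per the authors' deposited table by DESeq2. The ephrin system had 1 of 8, a decrease. Counted in the netrin system are also the netrin-G, RGM and FLRT genes. Without the RGM and FLRT genes, 4 of 7 netrin system genes changed (2 up, 2 down), with a median of -0.20. Medians of the authors' deposited table were -0.21 for slit, -0.0065 for netrin, -0.27 for semaphorin and -0.17 for ephrin genes. The systems also differ in how strongly they are expressed, and calls are made more easily at high counts. Median mean counts were 141 for slit, 66.4 for netrin, 128 for semaphorin and 108 for ephrin genes per the authors' deposited table. Ephrin genes thus had a higher median count than netrin genes, but a smaller share of them changed. With only members whose mean reached 100 counted, 4 of 5 slit, 3 of 4 netrin and 10 of 19 semaphorin genes changed by DESeq2. Of the ephrin genes, 0 of 5 did, per the authors' deposited table. The share of all genes at such counts was the 40.3% given above. Whether the systems differ beyond their expression was not tested. The sign of the slit median depended on which genes were kept. It was 0.05 over the 5 slit and ROBO genes, 0.60 over the 5 whose mean reached 100 and 0.52 over the 7 genes left without the SRGAP2 copies. It was -0.59 over the 5 genes without opposite-strand overlap and -1.12 for ROBO3, the 1 gene without the word TCAAGT described further on.

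**Figure D2:**
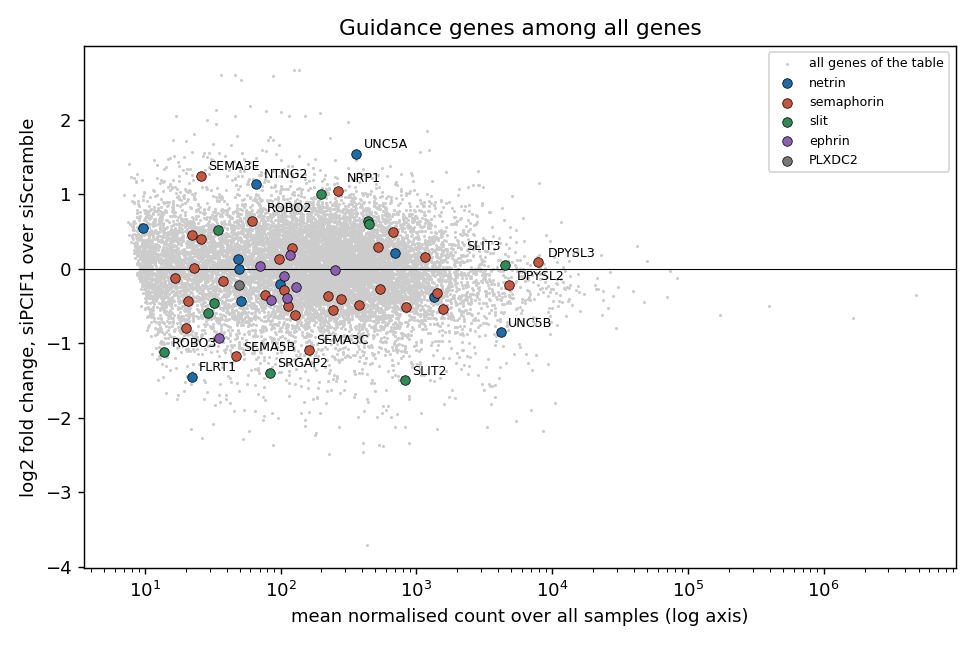
Log2 fold change, siPCIF1 over siScramble, against the mean normalised count (log axis) for all 13885 genes of the authors' deposited table (grey), with guidance genes coloured by system. Named are genes with a change of at least 1 and the most abundant ones; SLIT2 is at -1.49 and UNC5B at -0.85 despite high counts, and UNC5A is at 1.54.

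UNC5 receptors, the repulsive receptors for netrin, changed in opposite directions. UNC5A rose and UNC5B and UNC5C fell. UNC5A (ENSG00000113763.11; GRCh38 chromosome 5, 176810477 to 176880898, plus strand) went from an implied 185 normalised counts with siScramble to 539 with siPCIF1. Its log2 fold change per the authors' deposited table was 1.54 (SE 0.19), or 292% of the siScramble level (95% interval from the SE 225 to 377%), with a DESeq2 adjusted p of 4.29e-14. UNC5B, also known as a receptor on endothelial tip cells, is the most abundant of the family here. UNC5B (ENSG00000107731.12; chromosome 10, 71212570 to 71302864, plus strand) went from an implied 5402 to 3000.1 counts. In the authors' deposited table UNC5B was at -0.85 (SE 0.15), or 55.5% of the siScramble level (45.3 to 68.1%), with a DESeq2 adjusted p of 3.23e-07. UNC5C, known for guiding cerebellar and motor axons, fell less: the authors' deposited table placed it at -0.38 (SE 0.13), with a DESeq2 adjusted p of 0.0158 (ENSG00000182168.14; chromosome 4, 95162504 to 95549206, minus strand).

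The balance among the UNC5 genes moved with these changes. Per kilobase of main transcript, UNC5A made up 4.88% of the summed UNC5A, UNC5B and UNC5C level with siScramble and 20.2% with siPCIF1, as computed from the authors' deposited table. UNC5B made up 79.5% and 62.7%, so it stayed the most abundant of the 3 genes, and UNC5C 15.7% and 17.1%. The summed level per kilobase fell to 70.4% of the siScramble level. UNC5A and UNC5B thus differed by 2.39 on the log2 scale in their fold changes, a difference for which no SE can be given because the covariance is unknown. UNC5A overlaps an exon of HK3 on the opposite strand by 30 bases, and HK3 has no value analysed here. UNC5C shares 78 exon bases with the antisense gene AC106881.1, which the authors' deposited table has at 0.48 (SE 0.22, DESeq2 adjusted p of 0.0695).

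An earlier look at this same table had related 3′ UTR sites of the word TCAAGT with an A on either side to lower fold changes, but only in a model that held base composition, length and expression. The word is therefore no independent evidence here, and only the sense strand was searched. Whether it bears on the direction of change was not tested. The main transcripts of UNC5A, UNC5B and UNC5C each hold it at 1 site upstream of the 3′ UTR, so outside the sites of that earlier look. These sites are shown with 6 bases on each side because the paralogs carry the word in similar surroundings (GENCODE 29 transcripts, 5′ to 3′, T for U, the word in capitals):
UNC5A: tcttctTCAAGTgcaacg
UNC5B: tctactTCAAGTgcaacg
UNC5C: tctattTCAAGTgtaata
The windows span 18 bases; UNC5B has the base of UNC5A at 17 of them and UNC5C at 13. Their sites lie at transcript positions 498 to 503 in UNC5A, 652 to 657 in UNC5B and 627 to 632 in UNC5C. In the 3′ UTR, UNC5A has 0 sites, UNC5B 1 and UNC5C 5. The single site of the UNC5B 3′ UTR, at positions 3708 to 3713, is followed by an A:
UNC5B 3′ UTR: gaagagTCAAGTacaatt

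Other genes around netrin signalling were mostly at low counts. NEO1, which encodes neogenin, was at -0.0065 (SE 0.23, DESeq2 adjusted p of 0.986) per the authors' deposited table at a mean count of 49.5. DCC, the attractive netrin receptor, NTN1, which encodes netrin-1, NTN4, NTN5, UNC5D, FLRT2 and the UNC5-like gene UNC5CL have no value analysed here. NTN3, the one netrin gene outside the netrin-G pair that was measured, stood at -0.44 (SE 0.24, DESeq2 adjusted p of 0.145) per the authors' deposited table. RGMB, a membrane-anchored ligand of neogenin and BMP co-receptor, was at 0.21 (SE 0.14) and RGMA at 0.54 (SE 0.30) per the authors' deposited table, and neither passed.

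Netrin-G proteins are anchored to the axon surface and bind LRRC4 family partners rather than DCC or UNC5. NTNG2 rose, from an implied 41.4 to 91.5 normalised counts, with a log2 fold change of 1.14 (SE 0.22) and a DESeq2 adjusted p of 5.92e-06 per the authors' deposited table. NTNG1 was at -0.20 (SE 0.19, DESeq2 adjusted p of 0.455) per the authors' deposited table. LRRC4, the known partner of netrin-G2, was at -0.23 (SE 0.19, DESeq2 adjusted p of 0.363) per the authors' deposited table. FLRT proteins are adhesion molecules that also bind UNC5 receptors and repel. FLRT1 fell, at -1.45 (SE 0.28) with a DESeq2 adjusted p of 3.55e-06 per the authors' deposited table, at a mean count of 22.3. FLRT3, a known ligand of UNC5B, was at 0.13 (SE 0.24, DESeq2 adjusted p of 0.707) per the authors' deposited table. FLRT1 shares 538 exon bases with the opposite-strand gene AP006333.1 and 460 with AP000721.2 on its own strand, so its reads may be uncertain.

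Among slits and their receptors SLIT2 and ROBO3 fell, ROBO1 and ROBO2 rose, and SLIT3 did not pass. SLIT2 (ENSG00000145147.19; chromosome 4, 20253260 to 20620561, plus strand) went from an implied 1221 to 434 normalised counts. In the authors' deposited table SLIT2 was at -1.49 (SE 0.15), or 35.6% of the siScramble level (28.9 to 43.7%), with a DESeq2 adjusted p of 2.2e-20, the smallest of the 61 genes. SLIT3 is the more abundant slit gene here, at 466 mean counts per kilobase against 130 for SLIT2 per the authors' deposited table. It was at 0.05 (SE 0.13, DESeq2 adjusted p of 0.8) per the authors' deposited table, which by its 95% interval places it between 86.4 and 124% of the siScramble level (chromosome 5, 168661733 to 169301129, minus strand). SLIT1 has no value analysed here. Because SLIT3 carries most of the slit RNA, the summed level of both slit genes per kilobase was 83.6% of that with siScramble.

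ROBO1 and ROBO2 are the main neuronal slit receptors. ROBO1 (ENSG00000169855.19; chromosome 3, 78597240 to 79767815, minus strand) went from an implied 342 to 535 counts, with a log2 fold change of 0.64 (SE 0.15) and a DESeq2 adjusted p of 9.91e-05 per the authors' deposited table. ROBO2 (ENSG00000185008.17; chromosome 3, 75906695 to 77649964, plus strand) went from an implied 131 to 264 counts, at 1.01 (SE 0.17) with a DESeq2 adjusted p of 1.94e-07 per the authors' deposited table. ROBO3, which in commissural axons keeps slit repulsion low before the midline, fell to 46.0% of the siScramble level. Its log2 fold change was -1.12 (SE 0.29, DESeq2 adjusted p of 0.000919) per the authors' deposited table at a mean count of 13.9, the second lowest among the members. ROBO4, the endothelial member, has no value analysed here. The 3 measured ROBO genes together stood at 159% of the siScramble level per kilobase.

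**Figure D3:**
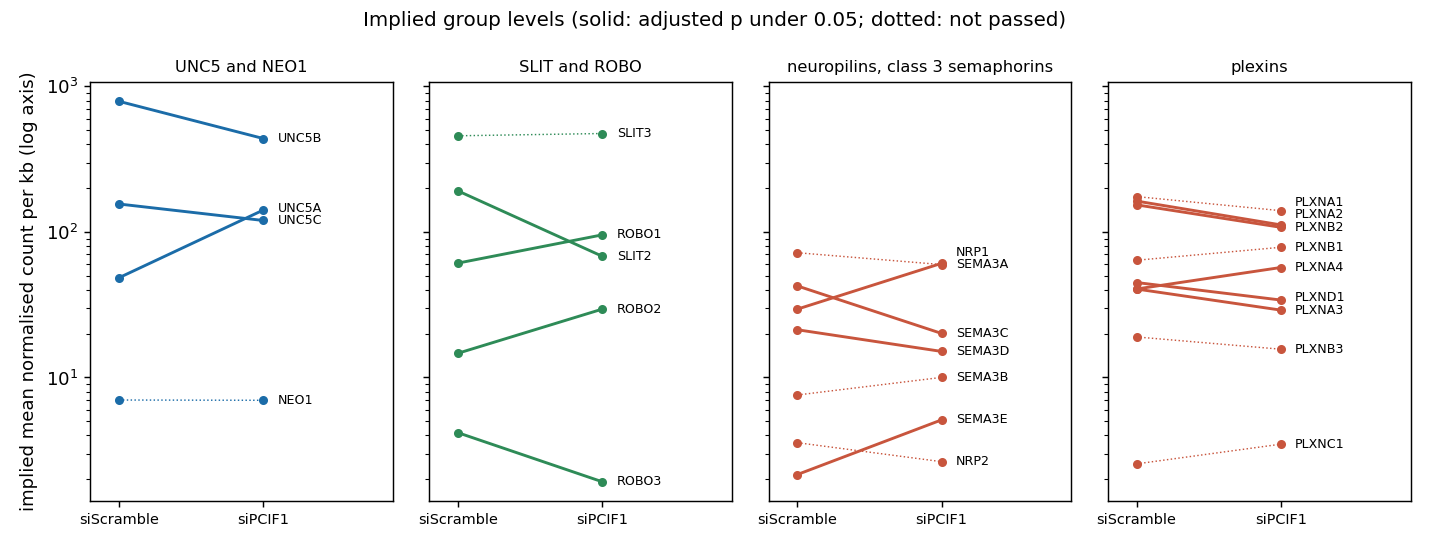
Implied mean normalised counts per kilobase of main transcript (log axis) with siScramble and siPCIF1, computed from the authors' deposited table, for UNC5 receptors and NEO1, slits and ROBO receptors, neuropilins and class 3 semaphorins, and plexins. Solid lines have a DESeq2 adjusted p under 0.05 and dotted lines do not; among the lines that cross are those of SLIT2 and ROBO1, of UNC5A and UNC5C and of SEMA3C and NRP1.

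SRGAP proteins bind the cytoplasmic part of ROBO and act on the small GTPases that shape membrane protrusions. SRGAP1 rose, at 0.60 (SE 0.15) with a DESeq2 adjusted p of 0.000638 per the authors' deposited table. With the trend along GC content, length and expression removed it was at 0.29 and did not pass (adjusted p of 0.156 from the DESeq2 values). SRGAP2, which promotes filopodia and spine maturation, was at -1.39 (SE 0.20) with a DESeq2 adjusted p of 1.36e-10 per the authors' deposited table. Its human-specific partial copies SRGAP2B and SRGAP2C were at -0.59 (SE 0.27) and -0.47 (SE 0.25) per the authors' deposited table, short of the threshold. The SRGAP2 copies are nearly identical in part and how shared reads were counted is not known here, so all 3 values are uncertain. SRGAP2 also shares 583 exon bases with FAM72A on the opposite strand. SRGAP3, linked to neuronal development, was at 0.52 (SE 0.25, DESeq2 adjusted p of 0.0958) per the authors' deposited table.

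Among the semaphorin receptors NRP1, the neuropilin that binds SEMA3A, rose to about the level of its ligand. NRP1 (ENSG00000099250.17; chromosome 10, 33177492 to 33336262, minus strand) went from an implied 173 to 358 normalised counts, or 206% of the siScramble level (163 to 262%). The log2 fold change of NRP1 was 1.05 (SE 0.18) with a DESeq2 adjusted p of 7.91e-08 per the authors' deposited table. NRP2, which prefers SEMA3F, was at -0.43 (SE 0.28, DESeq2 adjusted p of 0.228) at a mean count of 20.7 per the authors' deposited table. Per kilobase, NRP1 reached an implied 60.9 counts with siPCIF1, beside 59.7 for SEMA3A. NRP1 shares 561 exon bases with the opposite-strand gene AL121748.2, which has no value analysed here.

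Secreted class 3 semaphorins split. SEMA3C, a known cue for neural crest cells of the outflow tract, fell from an implied 220 to 104 counts, and SEMA3D fell as well, while SEMA3E rose. In the authors' deposited table SEMA3C (ENSG00000075223.13; chromosome 7, 80742538 to 80922359, minus strand) was at -1.08 (SE 0.18) with a DESeq2 adjusted p of 7.82e-08. SEMA3D was at -0.49 (SE 0.20, DESeq2 adjusted p of 0.0451) per the authors' deposited table. SEMA3E, which is known to signal through PLXND1 without a neuropilin, was at 1.25 (SE 0.28, DESeq2 adjusted p of 0.000139) per the authors' deposited table, from an implied 15.4 to 36.5 counts. SEMA3A, the most abundant semaphorin gene by mean count, was at -0.27 (SE 0.16, DESeq2 adjusted p of 0.187) and SEMA3B at 0.40 (SE 0.27) per the authors' deposited table. SEMA3A did pass as lower, at -0.64, with the trend along GC content, length and expression removed (adjusted p of 0.000799 from the DESeq2 values). SEMA3F, SEMA3G, SEMA5A and SEMA6B have no value analysed here, nor does PLXDC1.

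Of the 11 measured semaphorins of classes 4 to 7, 4 fell and 1 rose, beside 17.7% lower and 16.3% higher of all genes per the authors' deposited table by DESeq2. Of the 6 class 4 genes SEMA4A and SEMA4C fell, at -0.80 (SE 0.28, DESeq2 adjusted p of 0.0167) and -0.55 (SE 0.18, DESeq2 adjusted p of 0.0116) per the authors' deposited table. SEMA4C lost its call with the trend removed, at -0.35 (adjusted p of 0.157 from the DESeq2 values). SEMA4B, SEMA4D, SEMA4F and SEMA4G lay between -0.35 and 0.28 per the authors' deposited table, short of the threshold. SEMA5B, a repellent with thrombospondin repeats, fell at -1.18 (SE 0.24, DESeq2 adjusted p of 1.75e-05) per the authors' deposited table. In class 6, SEMA6A rose at 0.64 (SE 0.22, DESeq2 adjusted p of 0.0134) and SEMA6D fell at -0.62 (SE 0.17, DESeq2 adjusted p of 0.00221) per the authors' deposited table. SEMA6C, at 0.02 (SE 0.27), and the GPI-anchored SEMA7A, at -0.12 (SE 0.29), did not pass per the authors' deposited table.

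Every plexin gene (9) was measured, and by DESeq2 4 were lower and 1 higher, beside 17.7% and 16.3% of all genes, per the authors' deposited table. PLXNA2, a receptor for class 6 semaphorins and a partner of neuropilins, went from an implied 1866 to 1280 counts. It was at -0.54 (SE 0.14) with a DESeq2 adjusted p of 0.000678 per the authors' deposited table. PLXNA4, the partner of NRP1 in the response of sympathetic neurons to SEMA3A, rose at 0.49 (SE 0.19, DESeq2 adjusted p of 0.0358) per the authors' deposited table, from an implied 559 to 786 counts. PLXNA3, PLXNB2 and PLXND1 fell at -0.48 (SE 0.18), -0.51 (SE 0.19) and -0.40 (SE 0.16) per the authors' deposited table, with DESeq2 adjusted p of 0.026, 0.0233 and 0.0396. With the trend along GC content, length and expression removed none of those 3 passed, at -0.44, -0.31 and -0.26 (adjusted p of 0.0588, 0.233 and 0.25 from the DESeq2 values). PLXNA1, PLXNB1, PLXNB3 and PLXNC1 were at -0.32 (SE 0.16), 0.30 (SE 0.15), -0.28 (SE 0.20) and 0.45 (SE 0.28) per the authors' deposited table, short of the threshold. PLXNB1, the receptor of SEMA4D, passed as higher, at 0.45, once the trend was removed (adjusted p of 0.0145 from the DESeq2 values).

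The word TCAAGT again sits at one place in the related A plexins, upstream of the 3′ UTR and so not among the sites of the earlier look. It is shown because the related genes carry the same bases, and a link to direction was not tested (GENCODE 29 transcripts, 5′ to 3′, the word in capitals):
PLXNA1: tggccaTCAAGTacatgt
PLXNA2: tggccaTCAAGTacatgt
PLXNA3: tggccaTCAAGTacatgt
PLXNA4: tggccaTCAAGTacatgt
All 18 bases are the same in the 4 transcripts. PLXNA3 has 5 more sites in its 3′ UTR and PLXNA1 1 there. PLXNA2 has 2 more upstream of its 3′ UTR, and PLXNA4 has 0 others.

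Known ligand and receptor partners of the semaphorin system did not all move the same way. SEMA4C and its receptor PLXNB2 were both lower, at -0.55 and -0.51 per the authors' deposited table. SEMA3E was higher and PLXND1 lower, at 1.25 and -0.40 per the authors' deposited table. SEMA6A, whose receptors are PLXNA2 and PLXNA4, was at 0.64 beside -0.54 and 0.49 for those receptors per the authors' deposited table. DPYSL proteins, also called CRMPs, carry semaphorin signals to microtubules. All 4 were measured, and DPYSL2, DPYSL3, DPYSL4 and DPYSL5 were at -0.22, 0.09, -0.36 and 0.15 (SE 0.14 to 0.19) per the authors' deposited table, with 0 passing by DESeq2 and 0 at an unadjusted p under 0.05. By level per kilobase DPYSL3 and DPYSL2 ranked first and second of the 61 genes. DPYSL2 shares 71 exon bases with PNMA2 on the opposite strand, which was at -0.93 (SE 0.14) per the authors' deposited table. PLXDC2, a plexin domain protein outside these systems, was at -0.22 (SE 0.23, DESeq2 adjusted p of 0.494) per the authors' deposited table. With the trend removed PLXDC2 was at -0.64 and passed (adjusted p of 0.0265 from the DESeq2 values).

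Few ephrin or EPH genes were measured, 8 of 22. EFNA1, a GPI-anchored ephrin, fell from an implied 46.0 to 24.3 counts. It was at -0.92 (SE 0.25, DESeq2 adjusted p of 0.00114) per the authors' deposited table. EFNB1 and EFNB3, transmembrane ephrins, were at -0.39 (SE 0.19, DESeq2 adjusted p of 0.0924) and -0.43 (SE 0.21, DESeq2 adjusted p of 0.103) per the authors' deposited table. EFNB2 was at -0.01 (SE 0.18), with a 95% interval of 77.3 to 127% of the siScramble level, and EFNA5 at -0.09 (SE 0.19) per the authors' deposited table. The 3 EPH kinases measured, EPHA6, EPHB2 and EPHB3, were at 0.03 (SE 0.21), 0.19 (SE 0.20) and -0.24 (SE 0.19) per the authors' deposited table, with 0 passing by DESeq2 and 0 at an unadjusted p under 0.05. Their mean counts ran from 70.8 to 131. EPHA1, EPHA2, EPHA3, EPHA4, EPHA5, EPHA7, EPHA8, EPHA10, EPHB1, EPHB4, EPHB6, EFNA2, EFNA3 and EFNA4 have no value analysed here.

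Genes listed as acting downstream were counted beside all genes, of which 34.0% changed, 16.3% upwards and 17.7% downwards. Of 24 measured ephrin pathway genes 9 rose and 6 fell per the authors' deposited table by DESeq2, or 62.5%. TIAM1, a Rac activator, was at 1.22 (SE 0.16) and the adaptor GRB10 at -1.47 (SE 0.25) per the authors' deposited table. ADAM10, the protease that sheds ephrins, was at 0.70 (SE 0.15) per the authors' deposited table. EFR3A, counted on the list but not an established ephrin gene, was at 0.98 (SE 0.17) per the authors' deposited table. Among 25 semaphorin pathway genes 4 rose and 5 fell by DESeq2, or 36%, near the share of all genes. The MICAL proteins are enzymes that oxidise actin downstream of plexins, and MICAL2 was at -2.03 (SE 0.22) and MICAL1 at -0.66 (SE 0.14), while MICAL3 was at 0.15 (SE 0.14) and did not pass per the authors' deposited table. MICALL1, a relative that works in endosomal recycling, was at -1.43 (SE 0.16) and FHL1 at -1.03 (SE 0.14) per the authors' deposited table. The TIAM1 gene is on this list too.

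For netrin 1 of 18 pathway genes rose and 4 fell (27.8%), and for slit 4 of 19 rose and 4 fell (42.1%) by DESeq2 per the authors' deposited table. TRIM67, a brain ubiquitin ligase that binds DCC, was at -1.73 (SE 0.17), ABLIM3 at -1.19 (SE 0.29), SIAH2 at -0.65 (SE 0.17) and the kinase FYN at -0.38 (SE 0.13) per the authors' deposited table. SDC3, a heparan sulfate proteoglycan, and MYO9B, a RhoGAP that binds ROBO1, were at -0.68 (SE 0.16) and -0.62 (SE 0.15), and CLASP2, a microtubule plus-end protein, was at 0.55 (SE 0.15) per the authors' deposited table. ARHGAP39, the human Vilse homolog, was at -0.68 (SE 0.22) per the authors' deposited table. Among 30 genes of the growth cone cytoskeleton 4 rose and 3 fell, with SSH2 at 0.60, ROCK2 at 0.61, MARCKS at -0.53 and LIMK1 at -0.43 per the authors' deposited table by DESeq2. Of 17 heparan sulfate genes, whose sugar chains bind slits and netrins, 4 rose and 4 fell by DESeq2, with SDC2 at 1.05, HS6ST2 at 1.06, B4GALT7 at -0.71 and EXT2 at -0.62 per the authors' deposited table. Other guidance genes had 6 of 25 up and 4 down, with CNTN1 at 1.17, BMPR1B at 1.00, the Nogo receptor RTN4R at -0.99 and WNT5B at -1.05 per the authors' deposited table by DESeq2. Shares changed by list ran from 23.3% for the cytoskeleton to 62.5% for the ephrin pathway, beside 34.0% of all genes. They were 47.1% for heparan sulfate and 40% for other guidance genes.

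Cell identity markers were checked beside these values. Among the sympathetic neuroblast markers MYCN, HAND2 and GATA3 rose, at 1.09, 0.74 and 0.68 per the authors' deposited table by DESeq2. Of 6 fibroblast markers 4 were measured and PDGFRB fell, at -0.94 per the authors' deposited table, while COL1A1, DCN and LUM did not pass. The implied sum of those 4 was 1120 counts with siScramble and 645 with siPCIF1. Of 5 Schwann cell markers 3 were measured and S100B rose, at 1.21 per the authors' deposited table, with an implied sum of 203 and 270 counts. The endothelial and immune markers (0 of 3 measured in each list) have no value analysed here. The part of such shifts in the guidance gene results was not tested.

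Gene length differed in median between members that rose and fell, and their ranges overlapped. The 9 that rose had a median genomic length of 286 kb, the 17 that fell 90.3 kb and the 35 others 69.1 kb, beside 34.1 kb for all protein-coding genes of the authors' deposited table. ROBO2 and ROBO1 are the longest members, at 1743 and 1171 kb, but SLIT2, at 367 kb, and SEMA6D, at 590 kb, fell. Across the 61 genes, Spearman's rho between genomic length and log2 fold change was 0.22 and Pearson's r with log10 length 0.23. Over all 11790 protein-coding genes of the authors' deposited table rho was 0.27. Genes share the same libraries and length goes with base composition, so these values only describe the table. With GC content of the main transcript, rho was -0.12 among the members and -0.44 over all protein-coding genes.

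**Figure D4:**
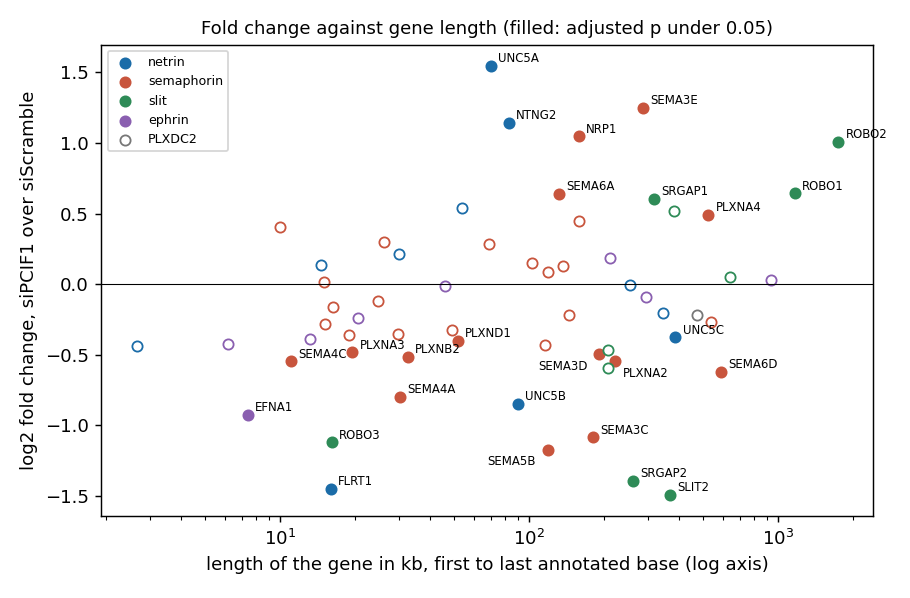
Log2 fold change, siPCIF1 over siScramble, against genomic length in kilobases (log axis) for the 61 guidance genes of the authors' deposited table, filled where the DESeq2 adjusted p is under 0.05 and coloured by system. Genes that rose lie to the right of 70.4 kb, the length of UNC5A, while genes that fell span 7.40 to 590 kb.

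The first transcribed base bears on the enzyme studied, since m6Am forms where that base is an A. RefSeq starts (GRCh38.p14) were found for 53 of the 61 members, and where a gene had several the one nearest the main GENCODE transcript was taken. The annotated first base was A in 32 of 53 members, or 60.4%, beside 45.5% of the 9830 genes matched. It was A in 3 of 6 members that rose, 9 of 16 that fell and 20 of 31 others. By the GENCODE main transcript it was A in 17 of 61, or 27.9%, beside 29.9% of all genes. RefSeq and GENCODE gave the same first base in only 15 of 53 members, so the starts used in these cells are not known from them. For 5 called slit, netrin and semaphorin genes, chosen after their values were seen, the 30 bases that end at the annotated first base are shown because this base decides whether m6Am can form (5′ to 3′ on the gene's strand, first base in capitals):
SLIT2: atataaggcccgcgccggctcaacttcggA
ROBO1: cgcggggactgtgggggaaacccacaagcA
ROBO2: ccctcgctccttccctgcctccctcaccaC
UNC5C: gagaaagtggagtgtggcgcttggttgtcG
SEMA3C: cgcccccggcctccggccactttccattcA
They lie at chr4:20251876-20251905 (plus), chr3:79019459-79019488 (minus), chr3:77040070-77040099 (plus), chr4:95548973-95549002 (minus) and chr7:80919051-80919080 (minus). SLIT2, ROBO1 and SEMA3C have an A here, ROBO2 a C and UNC5C a G, and any link of this base to the direction of change was not tested. GENCODE gives a different first base for each of the 5: C for SLIT2, T for ROBO1, G for ROBO2, C for UNC5C and G for SEMA3C. The SLIT2 start shown lies 1659 bases from that of the GENCODE transcript.

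TCAAGT was found in the sense strand of the main transcript in 48 of the 61 members, or 78.7%, beside 56.9% of all protein-coding genes. Members have long transcripts, with a median of 5335 bases against 3203, and were not matched for length. The word occurred in 8 of 9 members that rose, 13 of 17 that fell and 27 of 35 others. Within the 3′ UTR it occurred in 5 of 9, 10 of 17 and 13 of 35, or 45.9% of all members beside 30.8% of all protein-coding genes. Median transcript lengths of those 3 groups were 6878, 6265 and 4776 bases. Of the 13 members without the word, 1 rose (SEMA6A) and 4 fell (EFNA1, FLRT1, ROBO3 and SEMA4A) per the authors' deposited table by DESeq2. Of all genes, 16.3% rose and 17.7% fell. SLIT2 holds the word at 2 sites, both upstream of the 3′ UTR.

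With the smooth trend along GC content, transcript length and expression removed, 9 members passed as higher and 16 as lower, beside 24.8% of all genes changed. Of the 26 members called before, 21 kept their call, and PLXNA3, PLXNB2, PLXND1, SEMA4C and SRGAP1 lost it. PLXDC2, SEMA3A and SRGAP2C passed as lower and PLXNB1 as higher. UNC5A was then at 1.80, SLIT2 at -1.62, SEMA3C at -1.42, NRP1 at 0.88, ROBO2 at 0.71, ROBO1 at 0.64 and UNC5B at -0.61, all still called from the values of the authors' deposited table with DESeq2 SEs. SEMA3D went from -0.49 to -0.93 and SEMA3E from 1.25 to 0.81.

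**Figure D5:**
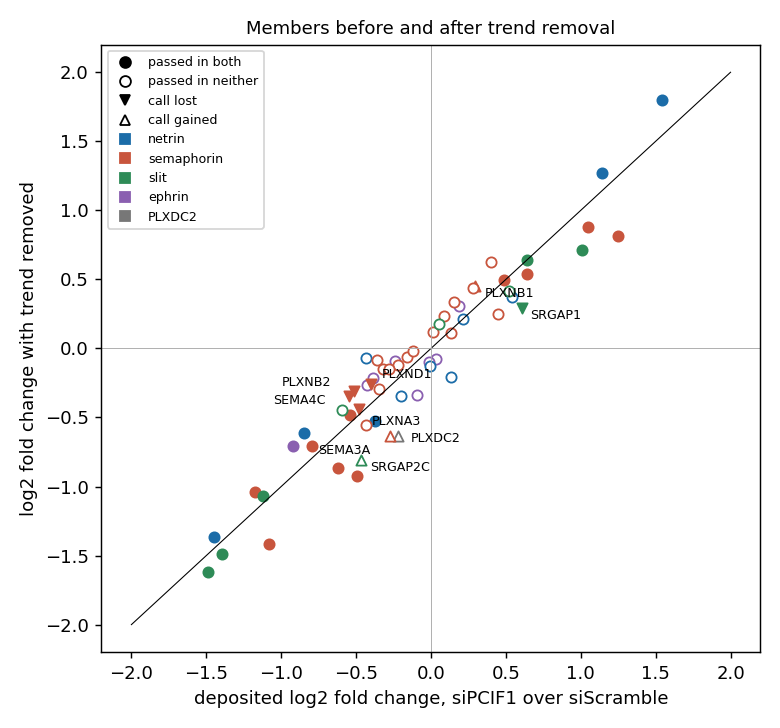
Log2 fold change of the 61 guidance genes with the trend along GC content, length and expression removed, against the deposited value per the authors' deposited table; the line marks equal values and colours mark the systems. Triangles are the 9 genes whose call was lost (5, filled) or gained (4, open).

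Of the 26 members that changed, 8 have exons that overlap a gene on the opposite strand. The library kit keeps strand, but whether the counting used strand is not known here.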

How the data were processed

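RNA of 6 BE(2)-C samples (3 siScramble, 3 siPCIF1) was made into poly(A)-selected, strand-specific libraries, per the labels' protocols. Tools in the submitters' processing notes, listed there without roles, are STAR 2.7.10a, cutadapt 3.7, HTSeq, bcl2fastq 2.20 and deepTools, the build is hg38, and the authors used DESeq2. The authors' deposited table gives each gene a mean normalised count (a signal), a log2 fold change with its SE, a Wald statistic (a score), a p-value and an adjusted p-value. Those columns were used as deposited. The library totals are not known here, so precision is read from the SE.

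Identifiers were matched without version to GENCODE 29 on GRCh38. The main transcript was ranked by APPRIS, basic tag, support level and length. Group levels were computed from mean and fold change. The rule for the members uses names alone, but these families and the other lists were chosen with earlier results of these data known. Named genes were PCIF1, all members that passed, well-expressed members that did not, whole small families, the remaining members so that each is accounted for, and up to 4 changed genes per further list by smallest adjusted p; MICAL1, MICAL3, LRRC4, unchanged markers and overlapping genes were named after their values were seen. In place of a count model, which needs counts per sample, the test of the authors (DESeq2) was taken as deposited. A natural spline trend (5 intervals between knots per covariate) was fitted by least squares to all genes. In a check of the code, fold changes of 13877 genes were drawn around known values with the deposited SEs. They were retested from the ratio of change to SE. Of the 200 genes given a log2 change of 1 up or down, 86.5% were called with the right sign. DESeq2 was not run there, so the check does not measure the power of the authors' test. Software was matplotlib 3.10.9, pandas 2.3.3, Python 3.11.15, scipy 1.17.1 and numpy 2.4.6. Alternatives were centring, trend removal, unshrunken estimates, a mean of at least 100, other thresholds, rescaled statistics and narrower member sets. Besides those printed, 1 more marker gene and 1 more start sequence were examined and are not reported here.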

Additional observations from a re-analysis of the deposited data

How the results depend on the processing

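Of the settings that can turn a sign, centring and trend removal, neither turned that of any of the 26 called members. Among the 33 members with a mean of at least 100 per the authors' deposited table, 6 passed as higher and 11 as lower. Of all genes with such a mean, 18.8% were higher and 21.5% lower. At a DESeq2 adjusted p of 0.01 there were 7 higher and 10 lower. With the Wald statistics divided by their robust SD (2.44, a width to which true changes add), 0 members passed as higher and 1 as lower. The 1 was SLIT2, with an adjusted p of 0.0121 from the DESeq2 values, and 135 genes (0.972%) passed in the whole table. At an unadjusted p under 0.05 on that scale 4 members were higher and 6 lower. The share of all genes at that unadjusted cut was not computed. Without members that hold TCAAGT, 1 of 13 was higher and 4 lower, a smaller set by construction. Without members whose exons overlap an opposite-strand gene, a setting chosen after seeing the data, 5 of 41 were higher and 13 lower. Beside both of these sets, 16.3% of all genes were higher and 17.7% lower. The median of all members ran from -0.28 to -0.13 over the settings. Back-calculated without shrinkage, UNC5A was at 1.75, SLIT2 at -1.61 and FLRT1 at -2.13. The strength of shrinkage was assumed from the largest SE and not fitted to counts, so these values are approximate, most so for genes with few counts such as FLRT1. No paired analysis was possible because the table analysed holds no values per sample, and for the same reason no sample could be left out. Low counts limit genes such as NRP2, RGMA, ROBO3 and the class 7 semaphorin, whose SEs are 0.28 to 0.30. They also limit the called genes SEMA4A, FLRT1 and SEMA3E, with mean counts of 20.2, 22.3 and 26.0 and SEs of 0.28.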
